A study of Mus musculus with 41 samples.

Results

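The genes described here encode 10 subunits of the chromatin complexes with which SOX9 was studied. *Kmt2c*, *Kmt2d*, *Kdm6a*, *Ncoa6* and *Paxip1* encode parts of the MLL3/4 complexes, and *Arid1a*, *Arid1b*, *Smarca4*, *Smarca2* and *Smarcc1* encode parts of SWI/SNF. They were chosen by name, as 10 of 21938 protein-coding genes, and each was taken with 50 kb to either side of its gene body, so that the loci spanned 2.33 Mb in all and 140 to 453 kb each. The values below are the peaks of SOX9, of the MYC tag of transgenic SOX9 and of MLL3/4 at these loci. They describe where these proteins sat on the genes that encode such complexes, and say nothing about how strongly the genes were expressed.

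MLL3 (encoded by *Kmt2c*) and MLL4 (*Kmt2d*) are histone methyltransferases that place the priming mark of enhancers on histone H3. They act in complexes with the histone demethylase UTX (*Kdm6a*), the nuclear receptor coactivator NCOA6 and the adaptor PTIP (*Paxip1*). SWI/SNF complexes use the energy of ATP to slide or evict nucleosomes. Their motor is either BRG1 (*Smarca4*) or BRM (*Smarca2*), ARID1A and ARID1B are alternative large subunits, and BAF155 (*Smarcc1*) belongs to the core around which the complex assembles.

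CUT&RUN (CNR) releases and sequences the DNA fragments around a protein that an antibody marks. Of 41 mouse samples, 32 were pooled in pairs into 16 peak lists, and 9 others, made with antibodies to JUN, ARID1a or BRG1, are not used here. Epidermal stem cells (EpdSCs) came from back skin of male CD1 mice of the genotype K14rtTA; TRE-myc-Sox9, whose *Sox9* transgene, fused to a MYC tag, is driven by rtTA under doxycycline (DOX) in cells with an active *Krt14* promoter. Cells were sorted as CD49f-high, Ly6A-high, CD34-negative and without CD31, CD45, CD117 or CD140a. The time points of SOX9 CNR were D0 (no DOX yet) and 1, 2, 6 and 12 weeks of DOX (W1, W2, W6, W12), and those of MLL3/4 CNR stopped at W2. Mice of D0, W1, W2 and W6 were aged 21, 28, 35 and 63 postnatal days, and neonatal skin grafted onto immunocompromised hosts gave the W12 cells, so the weeks of DOX, age and grafting cannot be told apart.

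In culture, keratinocytes from back skin carried K14rtTA with TRE-myc-Sox9 (WT-SOX9), TRE-myc-Sox9noTA (without the transactivation domain, ΔTA-SOX9) or TRE-myc-Sox9noHMG (without the DNA-binding HMG domain, ΔHMG-SOX9). MYC-tag and MLL3/4 CNR were each made in all 3 lines with DOX at 1 µg/ml, and without DOX in the WT-SOX9 line. No list without DOX was given for the mutant lines. Both are compared below with the WT-SOX9 line without DOX, so line and DOX cannot be told apart for them.

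Since each group had 1 pooled list, there was no replicate error and no test between groups. Shares of peaks carry a 95% Wilson interval in its place, which covers counting error only and treats peaks of 1 locus as independent, and values over the whole list are given beside the main shares. The lists held 792 to 20579 SOX9 peaks, 29281 to 37072 MLL3/4 peaks in vivo, 10543 to 33975 in culture and 2242 to 11341 MYC-tag peaks. The weakest peak kept had 24 to 59 fragments at its maximum in the SOX9 lists and 8 to 11 in the MYC-tag lists, while the depth of the unscaled MLL3/4 lists is unknown. As a check of the sorted cells, MLL3/4 peaks lay at starts of 4 of 5 basal keratinocyte markers (*Krt5*, *Krt14*, *Trp63* and *Itga6*) at D0, W1 and W2, and at 0 of 4 markers of the cells gated out. Of 4 hair follicle stem cell markers, only *Nfatc1* had one, at D0 and W2. In culture without DOX, 2 of 5 keratinocyte markers had one, and so did *Pecam1*, 1 of the 4 markers of cells gated out in vivo. Over all protein-coding genes, 33.3%, 22% and 23.3% had such a peak at D0, W1 and W2, and 23.3% in culture without DOX. The 0 of 4 is thus a weak check. A peak absent from a list can reflect fewer cells with the protein at that site or less of it per cell, which cannot be told apart in pooled cells.

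The sequences on which the SOX9 results turn are those of 5 of the 6 regions with a SOX9 peak at all 4 induced times and of 1 further region, the *Arid1b* peak with an AP1 word. Each is the 101-bp window around the centre of the maximum of the W1 peak, read from GRCm38.p6 (mm10) on the plus strand. Distances are from the 5′ end of the named gene, positive along its strand and negative upstream. Capitals mark matches to the SOX words, which are CCATTGT together with CCTTTGT, then GCATTGT together with GCTTTGT, or to the AP1 words, which are TGACTCA together with TGAGTCA, on either strand.
*Smarca2* +38.2 kb, chr19:26643233-26643333: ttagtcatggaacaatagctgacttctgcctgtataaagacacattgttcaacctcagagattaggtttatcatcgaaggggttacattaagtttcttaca
*Arid1a* +5.05 kb, chr4:133751665-133751765: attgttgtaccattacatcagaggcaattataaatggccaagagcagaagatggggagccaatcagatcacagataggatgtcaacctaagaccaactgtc
*Arid1b* +3.1 kb, chr17:4997385-4997485: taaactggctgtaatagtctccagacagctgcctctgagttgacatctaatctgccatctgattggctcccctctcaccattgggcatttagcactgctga
*Ncoa6* -5.34 kb, chr2:155479187-155479287: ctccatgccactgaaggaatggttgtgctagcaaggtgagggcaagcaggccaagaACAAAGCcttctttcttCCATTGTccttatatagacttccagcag
*Kmt2d* -10.3 kb, chr15:98881419-98881519: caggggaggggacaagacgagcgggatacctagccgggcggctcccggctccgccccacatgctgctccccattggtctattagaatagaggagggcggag
*Arid1b* +12.9 kb, chr17:5007136-5007236: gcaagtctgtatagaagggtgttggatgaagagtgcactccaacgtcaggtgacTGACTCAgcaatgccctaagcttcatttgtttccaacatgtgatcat

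Before DOX, MLL3/4 sat at 9 of the 10 loci, *Paxip1* being the exception, while SOX9 had single peaks at 3. With DOX, SOX9 peaks appeared at 9 of the 10 genes, again all but *Paxip1*, and 64, 33 and 31 peaks of MLL3/4 stood at the loci at D0, W1 and W2. Counted over all protein-coding loci, 71.7% had an MLL3/4 peak at D0, 67.9% at W1 and 65% at W2, beside 9, 9 and 8 of the 10 genes. A SOX9 peak stood at 3, 7, 9, 7 and 7 of the 10 at D0, W1, W2, W6 and W12, where 6.04%, 52.4%, 57.5%, 58.8% and 39.8% of all protein-coding loci had one. For both proteins the shares of the 10 genes lay above those of all loci, but the loci are long. Per 100 kb, MLL3/4 peaks numbered 2.74 at these loci and 1.92 at all protein-coding loci at D0, 1.41 and 1.55 at W1, and 1.33 and 1.47 at W2. The D0 value was 5.29 at *Arid1b* alone and 2.13 at the loci without *Arid1b*. SOX9 peaks per 100 kb were 0.643 against 0.778 at W1 and 0.9 against 0.943 at W2, so SOX9 peaks with DOX were no denser here than at all loci.

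**Figure D1:**
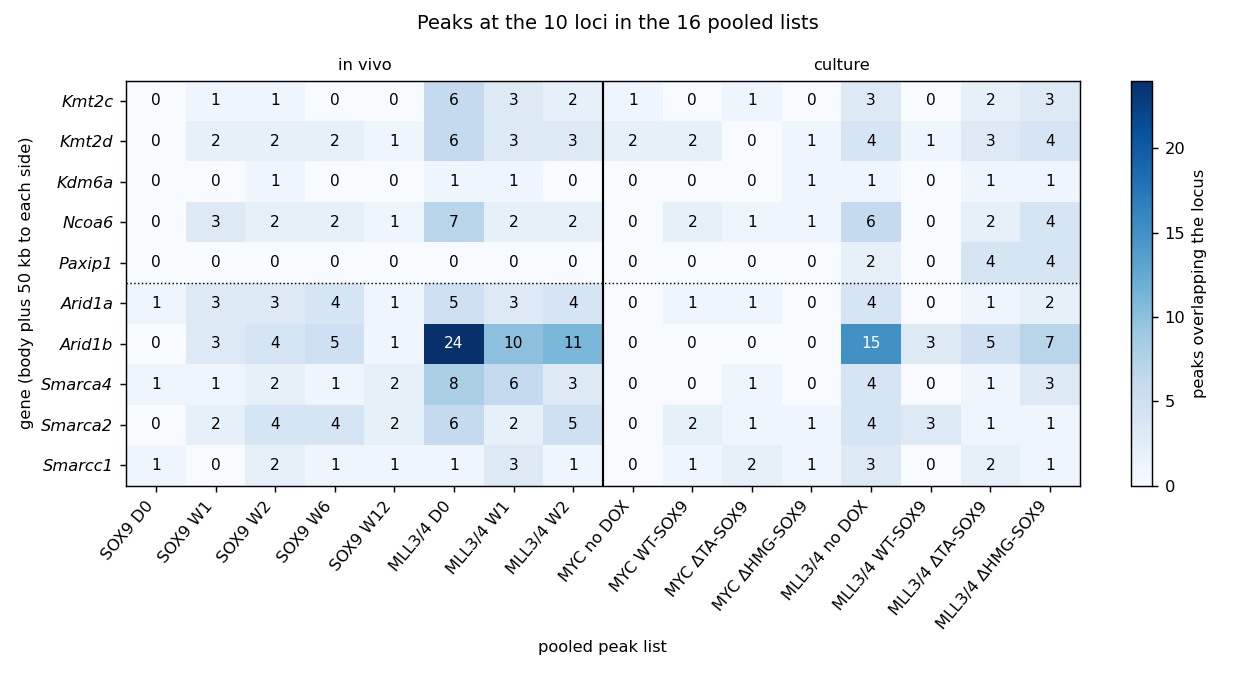
Number of peaks overlapping each gene body plus 50 kb to each side (rows) in the 16 pooled peak lists (columns), written and shaded by count. *Arid1b* leads the MLL3/4 lists in vivo with 24, 10 and 11 peaks at D0, W1 and W2, and *Paxip1* has peaks only in 3 cultured MLL3/4 lists.

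*Kmt2c* and *Kmt2d*, which encode MLL3 and MLL4 themselves, each had 6 MLL3/4 peaks at D0. *Kmt2c* (chr5:25271798-25498783, minus strand) had 3 MLL3/4 peaks at W1, 1 of them absent at D0, and 2 at W2, and *Kmt2d* (chr15:98831669-98871204, minus strand) had 3 at both times. Neither had an MLL3/4 or SOX9 peak at an own transcript start at any time. A promoter peak is one with any base within 1 kb of an annotated transcript start, and 5 of the 6 D0 peaks of *Kmt2d* lay at starts of neighbouring genes such as *Rhebl1*, *Prkag1* and *Lmbr1l*, in a locus with 6 other protein-coding genes. The highest D0 peak of *Kmt2c*, 38.1 kb upstream of its 5′ end, had a total signal of 4009 and ranked 2594 of 37072, and it was seen again at W1 and W2. Of the 12 D0 peaks of these genes, 6 were seen neither at W1 nor at W2, 4 at *Kmt2c* and 2 at *Kmt2d*.

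The other genes of the MLL3/4 complexes differed more. *Ncoa6* (chr2:155390656-155473894, minus strand) had 7 MLL3/4 peaks at D0, 2 at W1 and 2 at W2, of which 6 at D0 lay at starts of neighbours, *Pigu*, *Trp53inp2*, *Ggt7* and *Acss2*. *Kdm6a* on the X chromosome (chrX:18162575-18279936, plus strand) had 1, 1 and 0, its D0 and W1 peak lying over an exon 88.1 kb into the gene. *Paxip1* (chr5:27740080-27791691, minus strand) had none, and no SOX9 or MYC-tag peak in any list.

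Among the SWI/SNF genes, *Arid1b* (chr17:4994332-5347656, plus strand) stood apart in number, with 24 MLL3/4 peaks at D0, 10 at W1 and 11 at W2. It held 37.5% of all D0 peaks at the 10 loci, 22 of its 24 were distal, and its locus of 453 kb is also the longest of the 10 and holds no other protein-coding gene. *Arid1a* (chr4:133679008-133756769, minus strand), its alternative in the complex, had 5, 3 and 4. The D0 peak at the start of *Arid1a*, with a total signal of 943, was absent from W1 and W2, whereas the peak at the start of *Arid1b*, with a total signal of 1142, was present at all 3 times.

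The motors were read at their starts too. *Smarca4* (chr9:21616169-21704230, plus strand) had 8 MLL3/4 peaks at D0, 6 at W1 and 3 at W2. Both of its start peaks at D0 were weak, with total signals of 583 and 510. They ranked 33146 and 35824 of 37072, and neither was seen at W2. *Smarca2* (chr19:26605050-26778322, plus strand) had 6, 2 and 5, and the peak at its 5′ end, with a total signal of 2068 at D0, was found at all 3 times. The other 3 own-start peaks of *Smarca2* at D0 were weak, with total signals of 659, 500 and 546, and were absent at W1 and W2. *Smarcc1* (chr9:110117708-110240178, plus strand) had 1, 3 and 1, and none at an own start in vivo. Over the 10 genes, an MLL3/4 peak at an own start was found at 4 (*Arid1a*, *Arid1b*, *Smarca4* and *Smarca2*) at D0, 3 at W1 and 2 (*Arid1b* and *Smarca2*) at W2, beside 33.3%, 22% and 23.3% of all protein-coding genes. None of the 5 genes of the MLL3/4 complexes was among them.

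The net number of MLL3/4 peaks, after losses and gains, was lower against D0 at the loci than over the lists. The W1 count was 51.6% of the D0 count at these loci and 85.1% over the whole lists, and the W2 count was 48.4% and 79%. Of the 64 D0 peaks, 37 had no overlapping peak at W1 (57.8%, 45.6 to 69.1%), where 48.5% of the whole D0 list had none. At W2 36 had none (56.2%, 44.1 to 67.7%), where 48.7% of the list had none. Both list shares lay within the intervals of the loci. With the D0 and the later lists both cut to the 50% of peaks of highest total signal, so that an overlap with a weaker later peak counts as lost, 20 of 32 were lost at W1 (62.5%, 45.3 to 77.1%, list 45.7%) and 22 of 32 at W2 (68.8%, 51.4 to 82%, list 47.9%), and only the W2 list share lay outside its interval. In lists of equal size the shares were 51.1% (37 to 65%, list 41.6%) at W1 and 46.7% (32.9 to 60.9%, list 40.7%) at W2, and both list shares lay within the intervals. There were 21 peaks kept at both times (32.8% against 40.7% of the list) and 30 lost at both (46.9% against 37.8%).

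**Figure D2:**
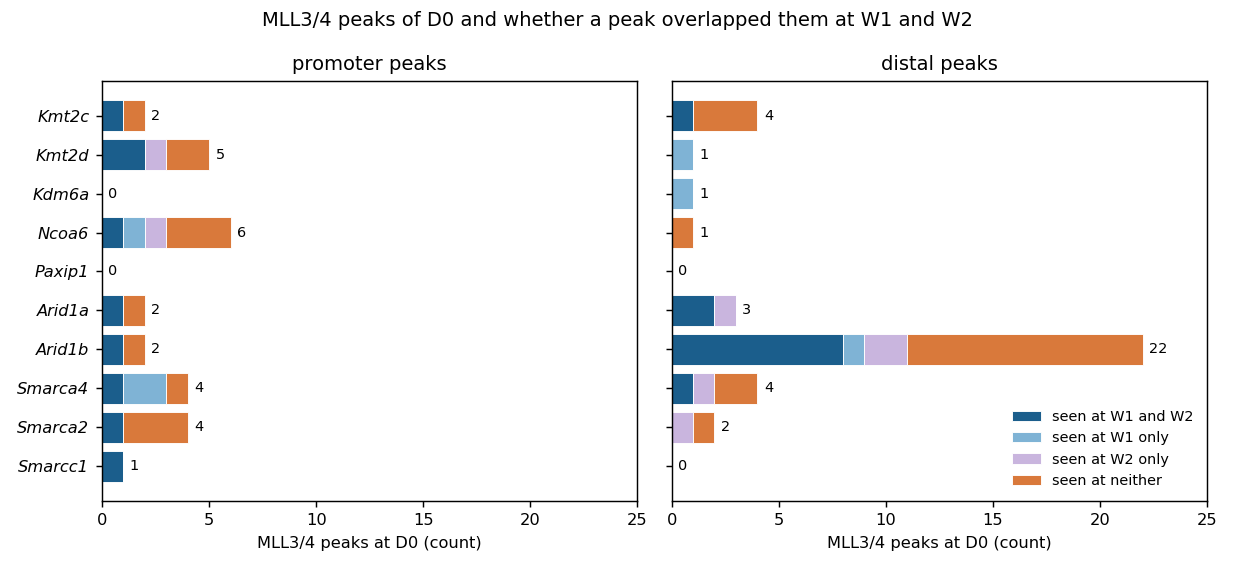
MLL3/4 peaks of D0 at each gene (rows), split into promoter peaks (left) and distal peaks (right), with the count on the horizontal axis and colour showing whether a peak overlapped them at both W1 and W2, at W1 only, at W2 only or at neither. *Arid1b* has 24 of the 64 peaks, 22 of them distal, and 30 of the 64 were lost at both times.

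Losses at promoter and distal peaks were not separable. At W1 14 of 26 promoter peaks were lost (53.8%, 35.5 to 71.2%, list 52.1%) and 23 of 38 distal peaks (60.5%, 44.7 to 74.4%, list 47%). At W2 the counts were 15 of 26 (57.7%, 38.9 to 74.5%, list 49%) and 21 of 38 (55.3%, 39.7 to 69.9%, list 48.5%). The intervals of the 2 classes overlapped at both times, and each list share lay within its interval. Weak peaks were lost more often: with the D0 list split by total signal into 3 parts of like size, 5 of 18 peaks in the upper part, 12 of 22 in the middle part and 20 of 24 in the lower part were lost at W1, that is 27.8%, 54.5% and 83.3%, beside 17.7%, 52.5% and 75.1% of the whole list. With loss thus tied to signal, and the depth of the lists unknown, the part of depth in these losses was not tested.

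Of the 3 lost peaks of highest total signal, 2 are given here, the one at *Smarca4* +99.3 kb, with a total signal of 2416 and rank 6692 of 37072, and the one at the start of *Trp53inp2* beside *Ncoa6*, with 2177 and rank 7886. No peak overlapped either at W1 or W2.

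Few MLL3/4 peaks were gained. At W1 7 of 33 peaks had no D0 peak under them (21.2%, 10.7 to 37.8%), where 39.7% of the whole W1 list had none. At W2 4 of 31 were gained (12.9%, 5.13 to 28.9%) beside 35.7% of the list. Among peaks at any protein-coding locus the shares were 37.4% and 34.2%, so the W1 share of the loci was not separable from them and the W2 share was lower. In lists cut to the same number of peaks, 32.3% (18.6 to 49.9%) and 25.8% (13.7 to 43.2%) were gained at the loci, beside 41.4% and 40.6% of the lists, and the list shares then lay within the intervals. In lists cut to the highest 50% by total signal, 1 of 13 was gained at W1 (7.69%, 1.37 to 33.3%), below the 36.6% of the list. At W2 it was 2 of 12 (16.7%, 4.7 to 44.8%, list 34.9%). Among the highest gained peaks were *Arid1b* +402 kb, with a total signal of 1233, and *Smarca2* +129 kb (951). The former lay within 500 bp of a D0 peak, and 1 W2 peak overlapped both. With peaks within 500 bp merged, 6 of 32 W1 peaks were gained (18.8%, 8.89 to 35.3%, list 39.3%). Of the 7 gained at W1, 1 was a promoter peak, at the shared start of *Timm29* and *Yipf2* beside *Smarca4*.

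In the SOX9 lists of D0, W1, W2, W6 and W12 the loci held 3, 15, 21, 19 and 9 peaks. *Smarca2* had 0, 2, 4, 4 and 2, *Arid1b* 0, 3, 4, 5 and 1, and *Arid1a* 1, 3, 3, 4 and 1. *Ncoa6* had 0, 3, 2, 2 and 1, and *Kmt2d* 0, 2, 2, 2 and 1. *Smarca4* had 1, 1, 2, 1 and 2, *Smarcc1* 1, 0, 2, 1 and 1, *Kmt2c* 0, 1, 1, 0 and 0, and *Kdm6a* 0, 0, 1, 0 and 0. Against W1, the counts were higher at W2 and W6 and lower at W12, at the loci as over the whole lists. At the loci the W2, W6 and W12 counts were 140%, 127% and 60% of the W1 count. Over the lists they were 119%, 131% and 62.3%. From W2 to W6 the count fell at the loci and rose over the lists. SOX9 sat at an own start of *Arid1b* and *Smarca2* at W1, W6 and W12 and of *Kdm6a*, *Arid1b*, *Smarca2* and *Smarcc1* at W2, beside 14.4%, 17%, 4.76% and 19.8% of all protein-coding genes in that order, and at no own start at D0 (0.694%). *Smarca2* has 42 annotated own starts, and its +141 kb region counts as one of them.

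These were mostly modest peaks. Of the 15 W1 peaks, 2 stood in the upper 50% of the list by total signal, among them *Smarca2* +38.2 kb, which ranked 7551 of 15651. The next 3 were the peak at the start of *Lmbr1l* beside *Kmt2d*, *Arid1b* +12.9 kb and *Arid1a* +125 kb, with maxima of 2651, 2766 and 3688 RPKM. The weakest, *Arid1b* +22.2 kb, ranked 15630 with a maximum of 1844 RPKM or 32 fragments, as few as the weakest peak of that list.

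SOX9 peaks at the loci lay at promoters in 7 of 15 at W1 (46.7%, 24.8 to 69.9%), 11 of 21 at W2 (52.4%, 32.4 to 71.7%), 8 of 19 at W6 (42.1%, 23.1 to 63.7%) and 4 of 9 at W12 (44.4%, 18.9 to 73.3%). The whole lists had 24.2%, 27.9%, 22.6% and 14.3% at promoters, all below the intervals. Against peaks at any protein-coding locus, with 27.9%, 31.9%, 26% and 16.6%, the list value lay within the interval at W1 and W6 and just below it at W2 and W12. For MLL3/4 the promoter share was 26 of 64 at D0 (40.6%, 29.5 to 52.9%) beside 28% of the list and 31.5% at any protein-coding locus, and 13 of 33 at W1 (39.4%, list 21.3%) and 11 of 31 at W2 (35.5%, list 24.1%). Of the 26 D0 promoter peaks, 8 lay at an own start and 18 at a start of another gene. Among the 5 genes of the MLL3/4 complexes 13 of 20 D0 peaks (65%) were promoter peaks and among the 5 SWI/SNF genes 13 of 44 (29.5%). Of the 44, 24 lay at *Arid1b*, 22 of them distal. Without *Arid1b*, 24 of 40 D0 peaks at the loci were promoter peaks (60%). A difference between the complexes can thus not be told apart from this 1 locus.

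Overlapping SOX9 peaks of W1 to W12 merged into 27 regions. Of these, 6 had a peak at all 4 induced times (22.2%, beside 17.9% of all merged regions), 7 at 3 times, 5 at 2 times and 9 at 1 time (33.3% beside 36%). Of the 15 W1 peaks, 13 were seen at W2 (86.7%, 62.1 to 96.3%, list 77.7%), 12 at W6 (80%, 54.8 to 93%, list 73.3%) and 6 at W12 (40%, 19.8 to 64.3%, list 35.8%). In lists of equal size only 4 W1 peaks were left, of which 2 (50%) were seen at W2 and 2 at W6, beside 71.6% and 63.4% of the list. Distal W1 peaks were seen again in 7 of 8 cases at W2 and W6 and in 4 of 8 at W12 (list 75.9%, 71.5% and 38%), and promoter peaks in 6, 5 and 2 of 7 (list 83.5%, 78.8% and 28.8%). Within these wide intervals the loci were not separable from the whole lists, nor promoter from distal peaks.

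**Figure D3:**
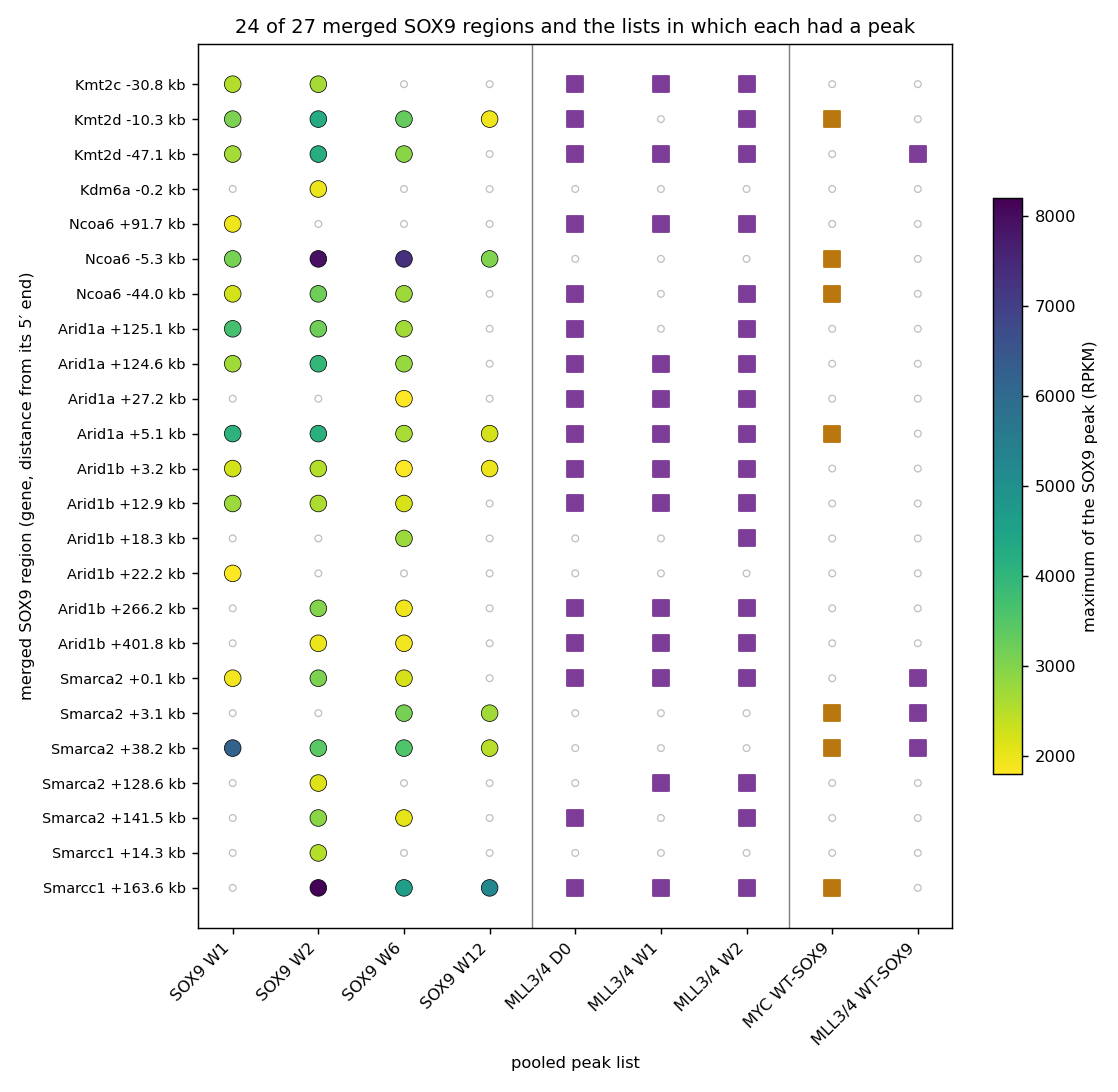
24 of the 27 merged SOX9 regions (rows, named by gene and distance from its 5′ end) against 9 pooled peak lists (columns); filled circles are SOX9 peaks coloured by maximum in RPKM, filled squares are MLL3/4 or MYC-tag peaks, and small open circles mark absence. The 5 rows with a SOX9 peak at W1, W2, W6 and W12 belong to *Kmt2d*, *Ncoa6*, *Arid1a*, *Arid1b* and *Smarca2*.

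The regions bound throughout fell on different genes, 5 of which are described here. *Smarca2* +38.2 kb, in an intron, had SOX9 maxima of 6223, 3438, 3568 and 2482 RPKM at W1, W2, W6 and W12, that is 108, 45, 85 and 54 fragments. It carried no SOX9 peak at D0 and no MLL3/4 peak at D0, W1 or W2. *Ncoa6* -5.34 kb had 3112, 7945, 7304 and 3033 RPKM, was in no MLL3/4 list of any kind, and was the only one of these 5 with SOX words in its window, 2 of them. Of the 6 regions, 2 thus lay on no MLL3/4 peak in vivo (33.3%, 9.68 to 70%), where 6.3% of all regions bound at all 4 times did.

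The other 4, of which 3 are given here, lay on MLL3/4 peaks that were there before DOX. *Arid1a* +5.05 kb, in an intron, had SOX9 maxima of 4091, 4125, 2645 and 2206 RPKM, and the region at the start of *Arid1b* had 2247, 2521, 1847 and 1976 RPKM, both with MLL3/4 at D0, W1 and W2. The region at *Rhebl1*, at -10.3 kb from *Kmt2d*, had 3054, 4278, 3316 and 1930 RPKM, with MLL3/4 at D0 and W2 but not at W1. *Rhebl1* encodes a small GTPase of the RHEB family.

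Most SOX9 peaks at the loci lay where MLL3/4 had been at D0. This held for 12 of 15 at W1 (80%, 54.8 to 93%, list 67.7%), 16 of 21 at W2 (76.2%, 54.9 to 89.4%, list 66.3%), 14 of 19 at W6 (73.7%, 51.2 to 88.2%, list 52.8%) and 5 of 9 at W12 (55.6%, 26.7 to 81.1%, list 40.7%). All 7 promoter peaks of W1 did so (list 83%), as did 5 of 8 distal ones (62.5%, list 62.8%). Over the merged regions it was 18 of 27 (66.7%, 47.8 to 81.4%, all regions 53.7%). All of these list shares lay within the intervals of the loci. On an MLL3/4 peak of the same time lay 9 of 15 SOX9 peaks at W1 (60%, 35.7 to 80.2%), below the 82% of the list. At W2 it was 17 of 21 (81%, 60 to 92.3%, list 78.7%).

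Among D0 MLL3/4 peaks, those kept carried SOX9 in a larger share than those lost, with intervals that overlapped at W1 and were apart at W2. At W1 SOX9 lay on 9 of 27 kept peaks (33.3%, 18.6 to 52.2%) and on 3 of 37 lost ones (8.11%, 2.8 to 21.3%), beside 55% and 7.58% over the list. At W2 it lay on 16 of 28 kept peaks (57.1%, 39.1 to 73.5%, list 58.3%) and 0 of 36 lost ones, which allows a share of up to 9.64% by the Wilson interval, beside 9.06% over the list. The W1 share of kept peaks was below that of the list, whose value lay above the interval. The 16 were spread over 8 genes, among them 4 at *Arid1b*, 3 at *Arid1a*, 2 each at *Kmt2d* and *Smarca2*, and 1 each at *Kmt2c*, *Ncoa6* and *Smarcc1*. Kept peaks were also higher and wider: at W1 they had a median rank in the top 35% of the D0 list and a median width of 361 bp, beside the top 70.9% and 244 bp for lost peaks. The part of signal height in the overlap with SOX9 was not tested. None of the 7 MLL3/4 peaks gained at W1 had a SOX9 peak of W1 (upper limit 35.4%, list 30.5%), and 1 of 4 at W2 had one, at *Smarca2* +129 kb (25%, 4.56 to 69.9%, list 38.5%). Both list shares lay within the limits.

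A narrow region beside *Smarcc1* stood apart. At +164 kb from *Smarcc1*, at the start of the microRNA gene *Mir6236*, SOX9 peaks of 107 to 115 fragments stood at D0, W2, W6 and W12. They were narrow, as were those of the other antibodies there: 78 to 165 bp wide, against list medians of 189 to 599 bp. MLL3/4 peaks stood there at D0, W1 and W2 with maxima of 27, 32 and 18, and a MYC-tag peak of 18 fragments in WT-SOX9 cells. It was thus present before DOX and for 3 antibodies, and it gave *Smarcc1* its only D0 peak of SOX9 and of MLL3/4. Whether the region is among those that give signal with any antibody was not tested. With it left out, SOX9 peaks stood at 2, 7, 9, 6 and 6 of the 10 loci at D0, W1, W2, W6 and W12, and MLL3/4 peaks at 8, 9 and 7 at D0, W1 and W2. Without it, SOX9 at *Smarcc1* came down to 1 peak, at an own start 14.3 kb into the gene at W2, with 2521 RPKM or 33 fragments. The single SOX9 peak of *Kdm6a*, at its start at W2, was as weak, with 1986 RPKM or 26 fragments.

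SOX words stood in the windows of 1 of 15 SOX9 peaks at W1 (6.67%, 1.19 to 29.8%), 3 of 21 at W2 (14.3%), 2 of 19 at W6 (10.5%) and 2 of 9 at W12 (22.2%), beside 18.4%, 15.5%, 18.8% and 24.8% of the whole lists. AP1 words, which bind JUN and FOS proteins, stood in 1 of 15, 3 of 21, 2 of 19 and 0 of 9, the last allowing a share of up to 29.9%, beside 16.2%, 15.7%, 23.5% and 29.8%. None of these list shares lay outside the interval of the loci. A window without a match lacks only these letters.

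In culture without DOX, MLL3/4 peaks numbered 46 and lay at all 10 loci, where 70.9% of all protein-coding loci had one. *Arid1b* again led with 15, then came *Ncoa6* with 6, *Kmt2d*, *Arid1a*, *Smarca4* and *Smarca2* with 4 each, *Kmt2c* and *Smarcc1* with 3, *Paxip1* with 2 and *Kdm6a* with 1. Of the 46, 29 had a D0 peak in vivo under them (63%, 48.6 to 75.5%), more than the 44.6% of the whole list. In the other direction, 27 of the 64 D0 peaks were seen in culture without DOX (42.2%, 30.9 to 54.4%), near the 40.4% of the D0 list. The peaks of *Paxip1* all lay downstream of the gene, 59 to 84.2 kb from its 5′ end and at no promoter, with maxima of 10 to 24 in the cultured lists.

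With DOX, WT-SOX9 cells had 7 MLL3/4 peaks at 3 loci, *Kmt2d*, *Arid1b* and *Smarca2*, while 42.4% of all protein-coding loci had one. ΔTA-SOX9 cells had 22 and ΔHMG-SOX9 cells 30, both at all 10 loci, beside 65.9% and 64.3% of all loci. The counts were 15.2%, 47.8% and 65.2% of the count without DOX, beside 31%, 76.4% and 68.6% for the whole lists.

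**Figure D4:**
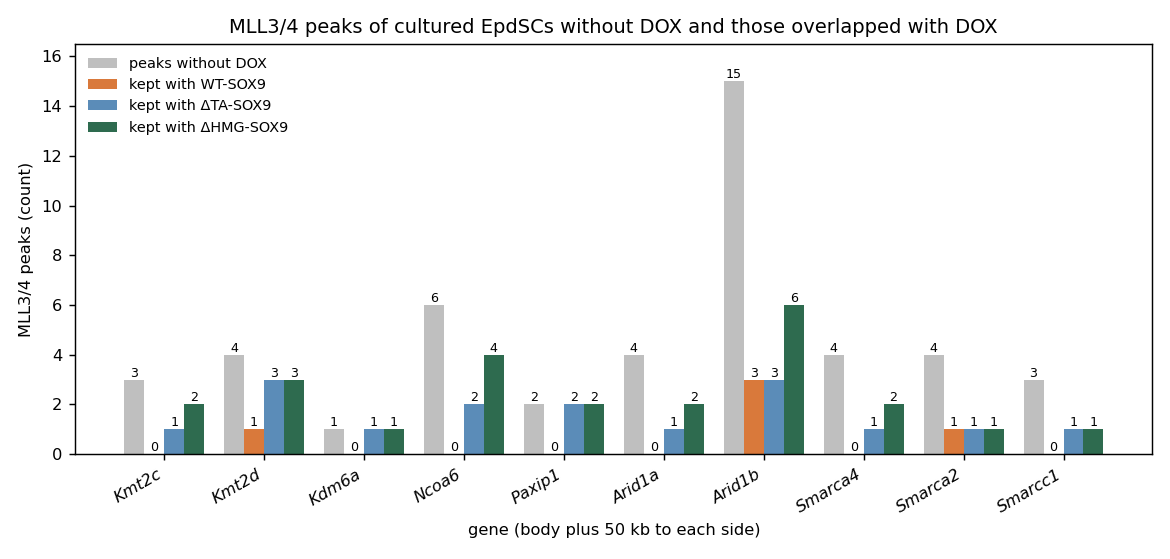
Number of MLL3/4 peaks (vertical axis) at each gene in cultured cells without DOX (grey) and how many of these were overlapped by a peak with DOX in WT-SOX9, ΔTA-SOX9 and ΔHMG-SOX9 cells (coloured bars). With WT-SOX9 5 of 46 were kept, with ΔTA-SOX9 16 and with ΔHMG-SOX9 24.

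Of the 46 peaks, 5 were kept with WT-SOX9 (10.9%, 4.73 to 23%, list 18%), 16 with ΔTA-SOX9 (34.8%, 22.7 to 49.2%, list 55.7%) and 24 with ΔHMG-SOX9 (52.2%, 38.1 to 65.9%, list 56.5%). The ΔTA-SOX9 share was below that of its list. In lists of equal size it was 37.5% (13.7 to 69.4%) beside 66.6%, that is 3 of 8, as many as with WT-SOX9 (list 41.7%). Among the peaks with the highest 50% of total signal the ΔTA-SOX9 share was 46.7% (24.8 to 69.9%) beside 57.1%. In both settings the ΔTA-SOX9 list share lay within the interval. With ΔHMG-SOX9 the share was 87.5% (52.9 to 97.8%, list 72.8%) in lists of equal size and 73.3% (48 to 89.1%, list 58.2%) among the highest 50%. With WT-SOX9 the highest 50% gave 0 of 15 (0 to 20.4%, list 16.2%). These list shares also lay within the intervals. The 5 kept with WT-SOX9 were the start of *Lmbr1l* beside *Kmt2d*, *Arid1b* +88.2, +132 and +188 kb and the 5′ end of *Smarca2*. Own-start peaks without DOX at *Kdm6a*, *Arid1b*, *Smarca2* and *Smarcc1* (23.3% of all protein-coding genes had one) stood beside own-start peaks at *Smarca2* with WT-SOX9 (5.81%), at *Kdm6a* with ΔTA-SOX9 (15.1%), and with ΔHMG-SOX9 at *Kdm6a* and at *Smarca4*, which had none without DOX (18.5%).

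A MYC-tag peak at an own start was found at *Smarca2* with WT-SOX9 (3.76% of all protein-coding genes) and at none of the 10 genes without DOX (4.19%), with ΔTA-SOX9 (3.69%) or with ΔHMG-SOX9 (5.32%). The MYC-tag lists held 3 peaks at the loci without DOX, 8 with WT-SOX9, 7 with ΔTA-SOX9 and 5 with ΔHMG-SOX9, at 2, 5, 6 and 5 genes, where 20.1%, 32%, 41% and 29.3% of all protein-coding loci had one. The list of replicate 1 alone, which carried no lower limit on the maximum and held 6707 peaks against the 2242 of the pooled list, had 7 peaks at the loci without DOX, and 2 among its 2232 peaks of at least 1800 RPKM. Of the 8 WT-SOX9 peaks, 5 were SOX9 peaks of W1 in vivo (62.5%, 30.6 to 86.3%, list 37.6%), and these were *Kmt2d* -10.3 kb, *Ncoa6* -5.34 kb, the shared start of *Acss2* and *Ggt7* beside *Ncoa6*, *Arid1a* +5.05 kb and *Smarca2* +38.2 kb. None of the 8 was seen with ΔTA-SOX9 (upper limit 32.4%, list 19.2%). The 7 ΔTA-SOX9 peaks were all distal and inside gene bodies, with 11 to 16 fragments. Their promoter share of 0% (0 to 35.4%) stood beside 11% of the list, within the interval. Of the 7, 3 lay on MLL3/4 peaks of cells without DOX (42.9%, 15.8 to 75%, list 68.3%). The peaks without DOX included 2 over coding exons, *Kmt2c* +111 kb with 4655 RPKM, rank 40 of 2242, and *Kmt2d* +6.44 kb with 3036 RPKM. The latter was also found with WT-SOX9 at 2462 RPKM and with ΔHMG-SOX9 at 3222 RPKM, so it was present without the induced protein and with one that lacks the HMG domain. The exon peaks of *Kmt2c* and *Kmt2d* without DOX each also overlapped an MLL3/4 peak of cells without DOX.

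**Figure D5:**
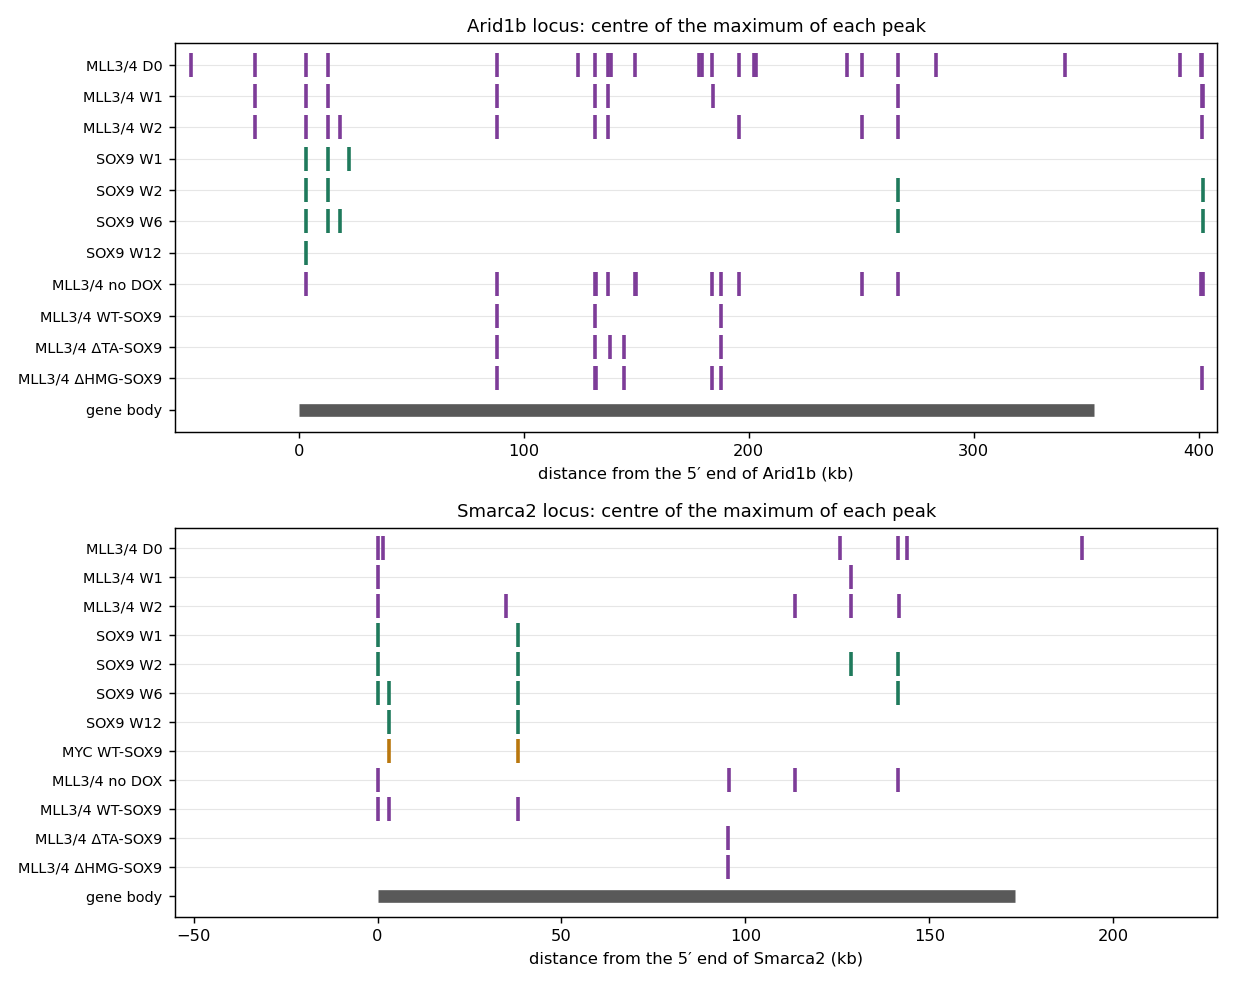
Positions of peaks at *Arid1b* (upper panel) and *Smarca2* (lower panel): the horizontal axis is the distance from the gene's 5′ end in kb, each row is a pooled peak list, each tick is the centre of the maximum of a peak and the grey bar is the gene body. At *Smarca2* +38.2 kb ticks stand in all 4 induced SOX9 rows and in the WT-SOX9 rows of the MYC tag and MLL3/4, but in no MLL3/4 row of D0, W1, W2 or of cells without DOX.

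At *Smarca2*, MLL3/4 peaks that were absent without DOX stood with WT-SOX9 where the MYC tag lay. WT-SOX9 cells gained 2 of their 7 MLL3/4 peaks (28.6%, list 41.8%), both at *Smarca2*, at +3.2 and +38.2 kb, and both coincided with WT-SOX9 MYC-tag peaks, of 2791 and 4761 RPKM. They were the 2 of the 7 on such a peak (28.6%, 8.22 to 64.1%), where 34.9% of the whole list lay on one. The MLL3/4 peak at +38.2 kb reached a maximum of 28 and ranked 991 of 10543, in the top 9.4% of its list, and was in none of the lists without DOX, of ΔTA-SOX9 or of ΔHMG-SOX9. The MLL3/4 peak at +3.2 kb was weaker, with a maximum of 6 and rank 7070. At +3.13 kb, an own start, SOX9 sat in vivo at W6 with 3148 RPKM and at W12 with 2712 RPKM, not at W1 or W2. The +3.13 kb region, the *Mir6236* region and the exon peaks of *Kmt2c* and *Kmt2d* were singled out after their values were seen.

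Beside the 10 genes, 33 other genes were read by the same rule. They encode parts of MLL, p300/CBP and SWI/SNF complexes, except *Smarca5*, which encodes the motor of ISWI remodellers. An MLL3/4 peak stood at 31 at D0, 29 at W1 and 29 at W2, and a SOX9 peak at 4, 24, 27, 30 and 18 at D0, W1, W2, W6 and W12, where the shares of all protein-coding loci are those given above. Their MLL3/4 peaks summed to 168, 117 and 130, and 87 of the D0 peaks were lost at W1 (51.8%, 44.3 to 59.2%) and 76 at W2 (45.2%), near the whole-list shares of 48.5% and 48.7%. *Bicra*, encoding a subunit of a bromodomain-containing SWI/SNF form, had most SOX9 peaks at W1, 8, followed by *Men1*, encoding menin, with 6, and by *Smarcc2*, *Dpf1*, *Bcl7c* and *Bicral* with 5 each. The genes with the highest numbers of MLL3/4 peaks lost at W1 were *Kmt2a*, *Smarcb1*, *Dpf2* and *Bicral*, with 6 each.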

How the data were processed

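CNR for SOX9, MLL3/4 and the MYC tag was read from 16 pooled peak lists (2 samples each) and from 2 lists of replicate 1 alone, the latter for an alternative. Groups came from the sample labels. For MLL3/4 in DOX-treated WT-SOX9 cells, the titles name replicates 1 and 2, but both samples are described as replicate 2. This leaves the make-up of that list unsure. Per the study's methods and the submitters' processing notes, the authors used Skewer (trimming), Bowtie2 2.2.9 (alignment to mm10), Picard (duplicates), SAMtools 1.3.1 (short fragments, pooling), deepTools 3.1.2 (coverage) and SEACR (peak calls). Maxima of the deposited SOX9 and MYC-tag peaks are in RPKM, scaled by the authors to library size and cut by them at a lower limit. Maxima of the deposited MLL3/4 peaks (7 pooled lists) are unscaled coverage in whole numbers, where the authors' methods describe RPKM. The total signal, a score that SEACR gave the authors, sums the coverage over the bases of a peak. Signals of different units were not compared, and ranks were taken within a list. The RPKM of 1 fragment is the step of which all maxima in a list are whole multiples, and gave the fragments behind a peak and 13.1 to 32.5 M fragments per SOX9 list and 4.04 to 6.09 M per MYC-tag list.

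Peaks were matched to GENCODE annotation of GRCm38.p6 with Python 3.11.15, pandas 2.3.3, numpy 2.4.6, scipy 1.17.1 and pysam 0.24.0, and plotted with matplotlib 3.10.9. Peaks were shared at an overlap of at least 1 bp. In each cultured MLL3/4 list 3 mitochondrial peaks were left out. Named beside the 10 genes were the 5 SOX9 peaks of highest total signal at W1, those at all 4 induced times, the 3 lost and 3 gained MLL3/4 peaks of highest total signal, and the 3 other complex genes (ties included) with most SOX9 or lost MLL3/4 peaks at W1. Single results at 1 neighbouring gene within these loci are not reported here, although its peaks are in the counts. The genes, lists and definitions were chosen with earlier results of these data known. No test between groups was possible with 1 list per group. The scripts were tested on simulated data.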

Additional observations from a re-analysis of the deposited data

How the results depend on the processing

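No paired analysis was possible because each group has 1 pooled list. Of 181 recomputed values, 139 moved by less than their interval or, for counts, by less than 1.5 times, among them every value with peaks within 500 bp merged (19), an overlap of at least 50% (18) and promoters of 2.5 kb (8). With every list cut to its highest 50% by total signal, MLL3/4 peaks at the loci numbered 32, 13 and 12 at D0, W1 and W2, SOX9 peaks at W1 2, cultured MLL3/4 peaks without DOX 15 and MYC-tag peaks 3, 1 and 1 with WT-SOX9, ΔTA-SOX9 and ΔHMG-SOX9. There, gained peaks at W1 were 7.69% (list 36.6%), D0 peaks lost at W2 68.8% (list 47.9%, promoter peaks 75%), and cultured peaks kept 0% with WT-SOX9 (list 16.2%) and 73.3% with ΔHMG-SOX9 (list 58.2%). Of the 2 SOX9 W1 peaks left, 0% were promoter peaks, 50% were seen at W2 and 50% at W6 (list 76.6% and 71.4%), 50% lay on D0 MLL3/4 and 0% had a SOX or AP1 word. The 1 W12 peak left lay on D0 MLL3/4 (100%) and had no SOX word (0%), and at W6 SOX words stood in 33.3% and AP1 words in 0%. With 10 kb of flank, MLL3/4 peaks numbered 39, 19 and 18, SOX9 W1 peaks 8, MYC-tag peaks 5 with WT-SOX9 and 2 with ΔHMG-SOX9, and 14 other complex genes had a SOX9 peak at W1. In lists of equal size, 50% of 4 SOX9 W1 peaks were seen at W2 and 50% at W6 (list 71.6% and 63.4%), and 37.5% and 87.5% of 8 cultured peaks were kept with WT-SOX9 and ΔHMG-SOX9 (list 41.7% and 72.8%). Without replicate 2, 7 MYC-tag peaks stood at the loci without DOX, in a list with no lower limit on the maximum, and 2 at a limit of 1800 RPKM, a setting added after the data were seen. Also added were a reading without *Arid1b*, which moved the promoter share of D0 MLL3/4 peaks to 60%, and one of gene bodies alone, which left 32, 16 and 17 MLL3/4 peaks, 6 SOX9 W1 peaks and 26 cultured peaks. The settings with fewer peaks rest on fewer of them by construction. Depth is unknown for the unscaled lists, so a peak missing from one may have gone undetected there or may have been absent.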
